A study of Solanum lycopersicum with 31 samples.

Results

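Nitrogen assimilation and amino acid transport were followed in leaves of wild-type tomato (Solanum lycopersicum, cultivar Moneymaker) grown beneath organic solar cell filters. The genes were taken by the words of their annotated product, which had to name nitrate, nitrite, an ammonium transporter, glutamine synthetase, glutamate synthase, asparagine synthetase, an amino acid transporter or permease, or a lysine histidine transporter. This gave 93 of 31152 annotated genes. The largest class was the AVT and other amino acid transporters with 24 genes, followed by 11 lysine histidine transporters, 10 nitrate regulatory gene2 proteins, 9 cationic amino acid transporters and 8 nitrate transporters. There were 7 amino acid permeases, 7 ammonium transporters, 6 glutamine synthetases, 2 glutamate synthases, 2 asparagine synthetases, 2 nitrite reductases and 1 nitrate reductase. A further 4 genes matched by their letters alone: N-acetyl-glutamate synthase, 2 folylpolyglutamate synthases and an asparagine synthetase domain-containing protein. The word NRT1/PTR found no gene, because the annotation spells that family with a space. Its 79 genes were therefore read as related genes and not as members.

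RNA from leaves was sequenced after poly(A) selection as 31 libraries, and the series describes 4 individual plants per condition. Plants grew in a chamber under ceramic metal halide and incandescent lamps. The filters were the polymer blends FTAZ:IT-M (FI), PTB7-Th:IEICO-4F (PI) and FTAZ:PCBM (FP), and a spectrally neutral control filter (C). In the experiment labelled PPFD Controlled (PC) all filters passed an equal photon flux to the plants, and in the experiment labelled Height Controlled (HC) the height was held equal. The 8 groups were FI_PC, PI_PC, FP_PC and C_PC, and FI_HC, PI_HC, FP_HC and C_HC. Each held 4 libraries except PI_HC, which held 3 (replicates 1, 3 and 4). Every group was the same wild-type cultivar, with no transgene or chemical treatment stated in the labels.

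Plants take up nitrate and reduce it in the cytosol to nitrite with nitrate reductase, and nitrite reductase in the chloroplast reduces it further to ammonium. Glutamine synthetase and glutamate synthase then fix the ammonium into glutamine and glutamate, and asparagine synthetase makes asparagine, a storage and transport form of nitrogen. In leaves the reduction of nitrite and the ferredoxin-dependent glutamate synthase draw reducing power from photosynthesis. Amino acids are moved across the plasma membrane and the vacuole membrane by families of carriers, among them the permeases, the lysine histidine transporters, the cationic amino acid transporters and the AVT proteins.

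Library totals lay between 13723119 and 15214288 counts, so that 3 counts, the floor used here, correspond to 0.197 to 0.219 CPM, the counts scaled to a common library size. This floor covers counting error only. Markers of leaf mesophyll, taken as 21 genes for chlorophyll a-b binding proteins and the small subunit of Rubisco, were all detected. Their summed level was 24750 to 33735 CPM in FI_PC, 18073 to 73984 in PI_PC, 38058 to 63208 in FP_PC and 18473 to 63090 in C_PC, and 31087 to 50592 CPM over the 4 HC groups. The 17 phloem markers summed to 375 to 703 CPM over all libraries, with 2 of them at 0 throughout, and the 10 guard cell markers to 366 to 655 CPM, also with 2 at 0. Of 25 acylsugar genes used as markers of glandular trichomes, 11 were at 0, and the sum was 83.6 to 489 CPM. The part of these differences in the results was not tested, and in bulk leaf RNA fewer cells of a type and less RNA per cell cannot be told apart.

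The identifiers of 3 libraries, labelled C_PC 4, PI_PC 4 and FP_PC 4, carry the code of a group other than the one on their label. They were analysed under their labels, and results were also taken without them. In addition, 3 libraries stood apart on the first principal component of all genes, which held 28.5% of the variance. The library labelled C_PC 4 was at -61.7, PI_PC 2 at -60.2 and PI_PC 3 at -58.6, while the other libraries lay between -15.8 and 30.2. The library labelled C_PC 4 thus belongs to both sets, and every comparison with C_PC or PI_PC rests on such libraries.

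Of the 93 members, 58 had enough counts to be tested. Of the other 35, 13 had no count in any library and 22 had a few, with a mean of at most 0.304 CPM. Part of this is a limit of the counting. The authors counted each exon record by itself, and a fragment that met more than 1 record was counted for none, which removes exons shared by several transcripts of a gene. The 69 members with 1 annotated transcript had a median mean level of 7.62 CPM and 48 of them were tested, against 0.166 CPM and 10 tested for the 24 members with several transcripts. The gene GS2, glutamine synthetase on chromosome 1 (79383527 to 79388792, build SL3.0, 2 transcripts), had 26 of its 28 exon records shared and averaged 0.0104 CPM. Glutamate synthase 1 [NADH] (LOC101254281), with 48 of 56 records shared, averaged 1.09 CPM. These low values are not levels of the transcripts. Genes with many exons also lose fragments that span 2 of them, so values per kilobase are understated for them.

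Nitrate reductase held the largest share of the members' counts. The members together held 0.756% to 1.00% of a library's counts, and nitrate reductase alone held 0.356% to 0.599%, which was 47.1% to 59.7% of the members' counts. Its gene, NR (chromosome 11, 7177071 to 7181590, minus strand), averaged 4981 CPM and ranked 16 among all genes by counts. The ferredoxin-dependent glutamate synthase LOC101246028 followed with 1077 CPM, the ammonium transporter LeAMT1;1 with 459 CPM, the cytosolic-type glutamine synthetase gene GS1 with 402 CPM and the cationic amino acid transporter 2, vacuolar-like LOC101262876 with 362 CPM. Per kilobase of exon the order among members with 1 transcript was NR at 1587, GS1 at 270, LeAMT1;1 at 248 and LOC101246028 at 199 CPM per kb. These genes have 4, 12, 1 and 33 exon records in that order. The shares and the order are therefore those of the counts, with the losses described above, and not of transcript amounts. Only 9 tested members reached 100 CPM. The ratio of the highest to the lowest group mean was 1.14 to 7.90 over the tested members, with a median of 1.69, and it reached 2 in 18 of them.

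**Figure D1:**
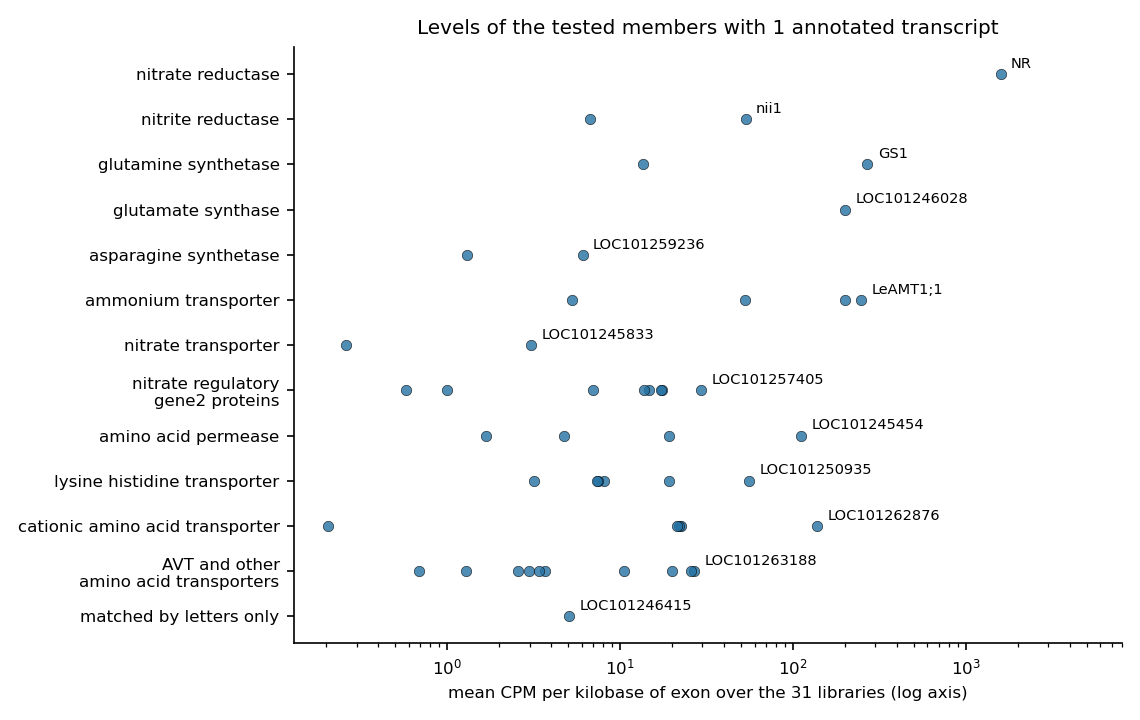
Mean level of each tested member with 1 annotated transcript, in CPM per kilobase of exon on a log axis, with 1 row per class and the highest gene of each class named. Nitrate reductase stands at 1587 CPM per kb, above every other class. The nitrate transporters, which do not include the NRT1/PTR family, are the class whose highest gene is lowest, at 3.08 CPM per kb.

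Some well-expressed transporter genes lay on the chromosome beside genes of their family near 0. On chromosome 2, lysine histidine transporter 1 (LOC101248631, 55198455 to 55201809) averaged 36.9 CPM, and the next 2 genes of the family beside it, LOC101264698 and LOC101264397, averaged 0.00696 and 0.00871 CPM. A transmembrane amino acid transporter (LOC101261384, chromosome 2, 46753852 to 46755569) averaged 34.2 CPM, and its neighbour LOC101245426, which starts 163 bp further on, averaged 0.0539 CPM. The cluster of 3 high-affinity nitrate transporter genes on chromosome 11 held 1 count in all libraries together. The main nitrate transporters listed here were low in these leaves: NRT2.7 (LOC101257730) averaged 5.58 CPM, the high-affinity nitrate transporter 3.2 (LOC101245833, of the family of partner proteins that NRT2 transporters need) 2.96 CPM and NRT2.2 0.482 CPM.

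A test of any difference among the 8 groups passed for 10 of the 58 tested members at an adjusted p under 0.05 (edgeR's quasi-likelihood test with Benjamini-Hochberg adjustment over all 16204 genes tested), against 10.4% of all genes. Of these 10, 9 encode transporters and 1 is N-acetyl-glutamate synthase, which belongs to arginine synthesis. Transporters are also the majority of the 58 tested members, and whether they are called more often than enzymes was not tested. No gene of nitrate or nitrite reduction, glutamine synthetase, glutamate synthase or asparagine synthetase passed this test by edgeR with all libraries. Of these genes NR had an unadjusted p under 0.05, and DESeq2 called NR alone among them (adjusted p = 0.00868), with 20 members in all. The smallest adjusted p values were 3.79e-06 for the amino acid transporter AVT6C (LOC101264123), 0.000237 and 0.000452 for 2 genes named lysine histidine transporter-like 8 (LOC101268233 and LOC101251882) and 0.000503 for the cationic amino acid transporter 5 (LOC101253855). Without the 3 libraries with conflicting identifiers 27 members (46.6% of those tested) passed, against 25.4% of all genes, and these held all 10. Without the library labelled C_PC 4 alone, 18 members (31%) passed, against 18% of all genes. Without the 3 libraries that stood apart 17 (29.3%) did, against 15.9%. Whether these shares differ from those of all genes was not tested. The enzyme genes nii1 and LOC101246028, for a nitrite reductase and a glutamate synthase, passed in both fits that left out 3 libraries, and NR passed in the one without conflicting identifiers.

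Among the enzymes, nitrate reductase had similar levels in the HC groups and varied more between the PC groups. NR had 5507, 5558, 5541 and 4445 CPM in FI_PC, 4276, 3092, 3453 and 4562 CPM in PI_PC, 5801, 5588, 5913 and 6346 CPM in FP_PC and 5042, 5947, 4697 and 3961 CPM in C_PC. The 4 PI_PC libraries were below every FP_PC and FI_PC library except FI_PC 4, which lay within their range, and they overlapped C_PC. In HC it averaged 4895 ± 374 CPM in FI_HC (SD, n = 4), 5081 ± 475 CPM in PI_HC (SD, n = 3), 5022 ± 562 CPM in FP_HC (SD, n = 4) and 4939 ± 495 CPM in C_HC (SD, n = 4), with all groups overlapping. The log2 fold change of PI_PC over C_PC was -0.35 ± 0.14 (SE) with an adjusted p of 0.244 by edgeR, and the test of any difference gave an adjusted p of 0.13 with all libraries and 0.0408 without the 3 libraries with conflicting identifiers.

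Nitrite reductase showed how much the libraries of C_PC and PI_PC differed among themselves. The gene nii1 (chromosome 1, 95774197 to 95776932), 1 of the 2 nitrite reductase genes, had 91.3, 32.5, 27.5 and 163 CPM in PI_PC and 164, 172, 160 and 37.4 CPM in C_PC. PI_PC 2, PI_PC 3 and the library labelled C_PC 4 were at the low end, below the 71.3 CPM that was the lowest value in any other library. The second gene, LOC778326 (chromosome 10), was lower throughout, with 14.9, 16.7, 21.8 and 9.48 CPM in PI_PC and 9.05, 13.8, 12.7 and 23.5 CPM in C_PC. Here the library labelled C_PC 4 and PI_PC 3 had the highest values in their groups. Reads of these 2 related genes could be split between them.

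Ferredoxin-dependent glutamate synthase (LOC101246028, chromosome 3, 37132430 to 37173076) makes glutamate in the chloroplast with photosynthetic reducing power. It had 1073, 693, 590 and 1424 CPM in PI_PC and 1419, 1484, 1404 and 643 CPM in C_PC, so the same 3 libraries were again the lowest of these groups. GS1 averaged 425 ± 41.9 CPM in FI_PC, 414 ± 43.9 CPM in PI_PC, 413 ± 61.6 CPM in FP_PC and 401 ± 75.1 CPM in C_PC (SD, n = 4 each), which overlap. In HC it averaged 404 ± 20.3 CPM in FI_HC, 398 ± 71.2 CPM in FP_HC and 418 ± 48.7 CPM in C_HC (SD, n = 4 each), and 324 ± 87.6 CPM in PI_HC (SD, n = 3). The cytosolic isozyme gts1 was lower, at a mean of 19.2 CPM, with 5.57 CPM in the library labelled C_PC 4 as its lowest value. The asparagine synthetases LOC101259236 and LEAS1 averaged 11.9 and 2.95 CPM. Adjusted p values of the test of any difference, by edgeR with all libraries, were 0.694 for LOC101246028, 0.719 for GS1, 0.763 for nii1, 0.99 for LOC778326, 0.993 for gts1, 0.643 for LOC101259236, 0.457 for LEAS1 and 0.834 for LOC101254281. For LOC101246028 the value was 0.0278 without the libraries of conflicting identifiers and 0.0447 without those that stood apart. For nii1 it was 0.00562 without the libraries of conflicting identifiers and 0.0319 without those that stood apart.

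**Figure D2:**
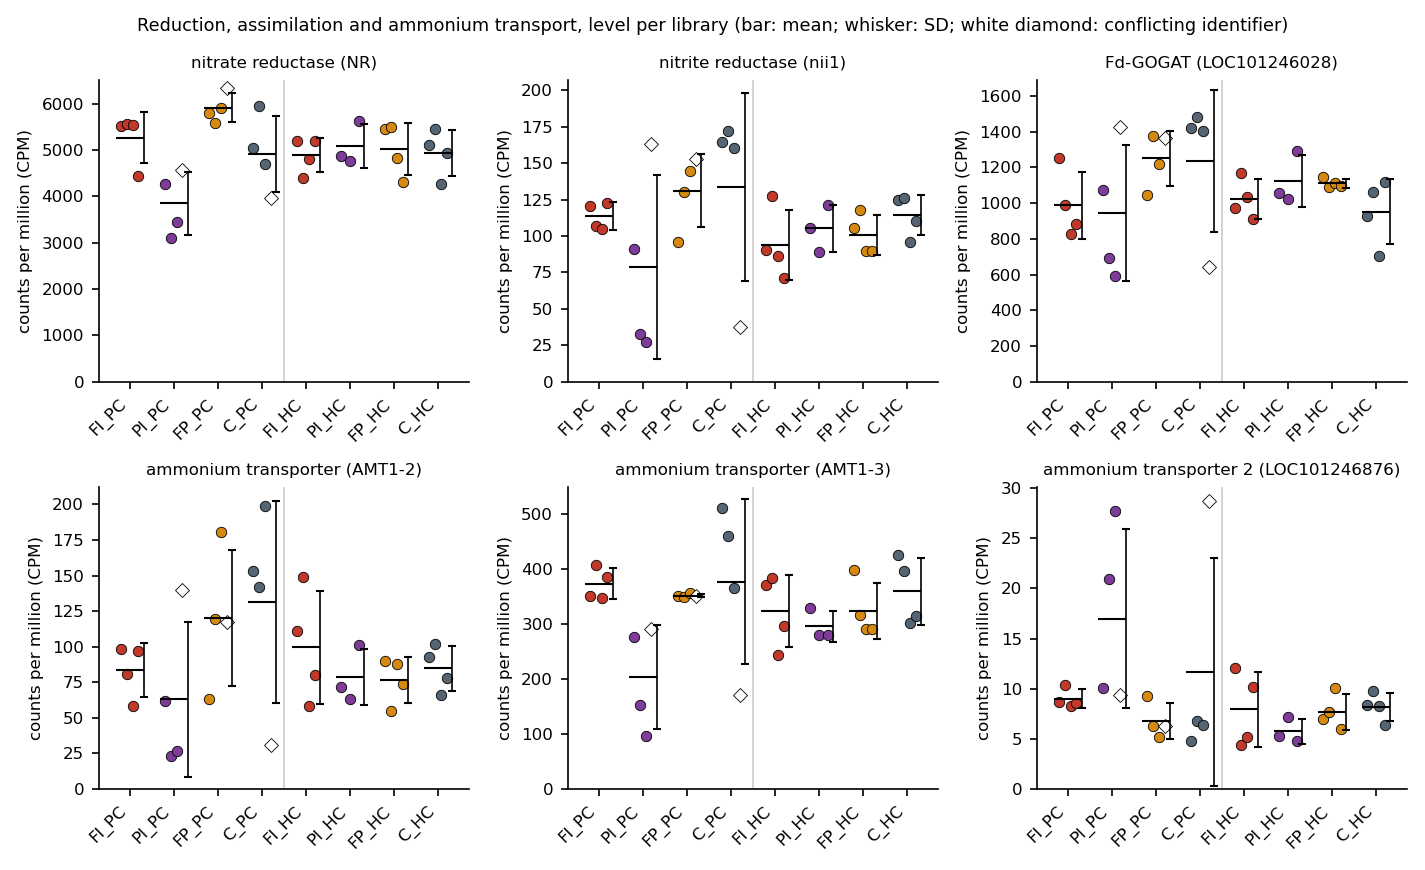
Level in CPM of 6 genes of reduction, assimilation and ammonium transport in each of the 31 libraries, by group, with the group mean as a bar and its SD as a whisker, and the 3 libraries with conflicting identifiers as white diamonds. In nii1, LOC101246028, AMT1-2 and AMT1-3 the lowest PC values are those of PI_PC 2, PI_PC 3 and the library labelled C_PC 4, which are the highest in LOC101246876.

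The question of the PI filter at equal flux therefore turned on these libraries. None of the 58 members passed in PI_PC against C_PC with all libraries by edgeR, where 0.296% of all genes passed; 14 members had an unadjusted p under 0.05, and DESeq2 called 4. The smallest p was that of LOC101268233, a lysine histidine transporter-like 8 gene (chromosome 10, 57257481 to 57261187). It had 17.0, 23.0, 48.6 and 37.4 CPM in PI_PC and 9.43, 8.63, 12.5 and 19.8 CPM in C_PC. Of the PI_PC libraries only PI_PC 1 was below the highest C_PC value, which was that of the library labelled C_PC 4. The log2 fold change was 1.32 ± 0.32 (SE) with an adjusted p of 0.0616 by edgeR, and 1.31 with an adjusted p of 0.00856 by DESeq2. It passed in edgeR without the library labelled C_PC 4 (adjusted p = 0.00243), without PI_PC 1 (adjusted p = 0.0231) and without PI_PC 4 (adjusted p = 0.0438).

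In PI_PC against C_PC 25 members passed once the 3 libraries with conflicting identifiers were left out, 13 higher and 12 lower, against 28.8% of all genes (13.7% higher and 15% lower). These were 43.1% of the tested members, and whether that share differs from the background was not tested. Without the library labelled C_PC 4 alone 15 members (25.9% of those tested) passed, against 14.8% of all genes. Without the library labelled PI_PC 4 alone 5 (8.62%) did, against 4.68%, and without PI_PC 1 alone 1 (1.72%) did, against 1.19%. Without C_PC 4, PI_PC 2 and PI_PC 3, which stood apart, 2 members (3.45%) passed, against 1.93% of all genes. The reduced PI_PC group without conflicting identifiers held PI_PC 1, 2 and 3, of which 2 stood apart.

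The ammonium transporters, plasma membrane carriers of ammonium, moved in both directions in that reduced comparison. All 4 tested members of the class passed, and they were looked at after their values were seen. AMT1-2 (chromosome 4, 47168422 to 47171280) had 61.7, 23.2, 26.9 and 140 CPM in PI_PC and 153, 142, 199 and 31.1 CPM in C_PC, the last value of each being the doubtful library. AMT1-3 (chromosome 3, 11504477 to 11506119) had 276, 152, 95.5 and 290 CPM in PI_PC and 511, 461, 367 and 171 CPM in C_PC. Both genes were thus lowest in PI_PC 2, PI_PC 3 and the library labelled C_PC 4. Ammonium transporter 2 (LOC101246876, chromosome 10, 59570311 to 59573422) had 10.02, 20.9, 27.7 and 9.34 CPM in PI_PC and 4.83, 6.77, 6.41 and 28.7 CPM in C_PC, with the same 3 libraries highest.

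In the fit without the 3 libraries with conflicting identifiers, AMT1-2 fell by 2.14 on the log2 scale (SE 0.37, adjusted p = 0.000241 by edgeR) and AMT1-3 fell by 1.35 (SE 0.24, adjusted p = 0.000338). In the same fit LOC101246876 rose by 1.70 (SE 0.33, adjusted p = 0.000715) and LeAMT1;1 by 0.58 (SE 0.17, adjusted p = 0.0108). With all libraries the log2 fold changes were -1.06 for AMT1-2, -0.89 for AMT1-3 and 0.53 for LOC101246876, with adjusted p values of 0.276, 0.115 and 0.567. The gene nii1 fell by 1.72 in the reduced fit (SE 0.29, adjusted p = 0.000195), against -0.77 with all libraries (adjusted p = 0.371). LOC101246028 fell by 0.87 in the reduced fit (adjusted p = 0.00154) and NR by 0.53 (adjusted p = 0.00784). The lysine histidine transporter-like 8 gene LOC101251882 rose by 1.36 in that fit (adjusted p = 0.000202), and LOC101268233 by 1.54 (adjusted p = 0.00108). Only these 2 members also passed by edgeR without the 3 libraries that stood apart. There LOC101251882 rose by 1.34 (adjusted p = 0.0136) and LOC101268233 by 1.41 (adjusted p = 0.037). None of the ammonium transporters, nii1, LOC101246028 or NR passed in that fit.

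**Figure D3:**
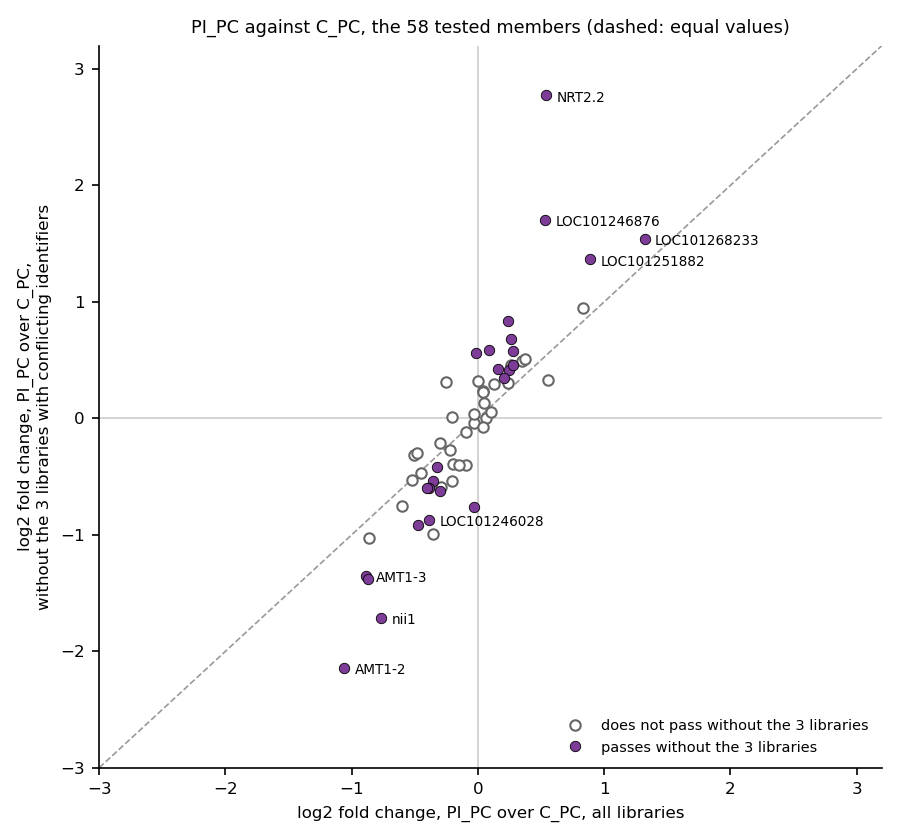
Log2 fold change of PI_PC over C_PC for the 58 tested members, with all libraries on the x axis and without the 3 libraries with conflicting identifiers on the y axis, the dashed line marking equal values and filled points passing in the reduced fit. The 25 filled points all lie farther from 0 on the y axis, as with AMT1-2 at -2.14 against -1.06 and LOC101246876 at 1.70 against 0.53.

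Mesophyll, guard cell and acylsugar marker sums were low in PI_PC 2, PI_PC 3 and the library labelled C_PC 4. Summed mesophyll markers were 42344, 18791, 18073 and 73984 CPM in PI_PC 1 to 4 and 63090, 51454, 61703 and 18473 CPM in C_PC 1 to 4. Acylsugar genes summed to 179, 121, 105 and 216 CPM in PI_PC 1 to 4 and to 342, 407, 454 and 83.6 CPM in C_PC 1 to 4. Guard cell markers summed to 610, 452, 366 and 583 CPM in PI_PC 1 to 4 and to 655, 587, 636 and 403 CPM in C_PC 1 to 4, while every library outside these groups was at 499 CPM or more. Phloem markers summed to 680, 414, 489 and 703 CPM in PI_PC 1 to 4 and to 496, 454, 577 and 483 CPM in C_PC 1 to 4. For phloem the library labelled C_PC 4 thus lay within the range of C_PC 1 to 3. The part of these markers in the members' values was not tested.

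The FI filter at equal flux gave calls in 4 amino acid carriers with all libraries. In FI_PC against C_PC 4 of 58 tested members passed, 3 higher and 1 lower, against 2.26% of all genes (1.43% higher and 0.827% lower). The median log2 fold change was -0.01 over the members and -0.03 over all genes tested. The 4 were AVT6C, the cationic amino acid transporter 4 (CAT4), a lysine histidine transporter-like 8 gene and AVT3C. None of these 4 is an enzyme, but most of the tested members are transporters. The number of members called was 5 (8.62% of those tested) without the 3 libraries with conflicting identifiers, against 6.35% of all genes. It was 5 (8.62%) without the library labelled C_PC 4 alone, against 4.21%, and 8 (13.8%) without the 3 libraries that stood apart, against 9.34%. The glutamate synthase LOC101246028 (-0.55, adjusted p = 0.02) and AMT1-2 (-0.99, adjusted p = 0.0423) were lower and passed in the fit without the libraries that stood apart. N-acetyl-glutamate synthase (LOC100301981) was lower and passed both there (-0.69, adjusted p = 0.0277) and without the libraries of conflicting identifiers (-0.68, adjusted p = 0.0404). In a fit of FI_PC and C_PC alone none of the 4 passed, with adjusted p values of 0.105 for AVT6C, 0.135 for CAT4, 0.149 for LOC101250935 and 0.376 for AVT3C.

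AVT6C (LOC101264123, chromosome 5, 63423355 to 63425670, minus strand, 5 exons) is of a family that in Arabidopsis exports amino acids from the vacuole. It had 52.4, 83.8, 114 and 95.4 CPM in FI_PC and 35.2, 29.1, 23.3 and 41.7 CPM in C_PC. Every FI_PC library was above every C_PC library. The gene rose in FI_PC by 1.42 ± 0.23 on the log2 scale (SE), with an adjusted p of 0.00147 by edgeR. The call held without each library in turn (adjusted p at most 0.0102) and once the 3 libraries of doubtful identity were left out (1.57, adjusted p = 0.000475).

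In the other 5 filter groups the mean of AVT6C was below that of its control. PI_PC had 24.1, 23.6, 23.6 and 21.4 CPM and FP_PC 12.9, 21.8, 21.4 and 31.7 CPM, and both groups overlapped the low end of C_PC. At equal height the control was high, with 41.3, 33.9, 28.0 and 29.2 CPM in FI_HC, 23.9, 15.5 and 29.6 CPM in PI_HC, 27.3, 30.7, 30.0 and 30.4 CPM in FP_HC, and 68.3, 59.9, 46.9 and 44.6 CPM in C_HC. Each filtered HC library was below every C_HC library. Of these differences from C_HC, that of PI_HC passed, with a fall of 1.26 ± 0.26 on the log2 scale (SE, adjusted p = 0.00954 by edgeR). The log2 fold changes of FI_HC (-0.73) and FP_HC (-0.89) had adjusted p values of 0.738 and 0.345, and that of C_HC over C_PC was 0.76 with an adjusted p of 0.128. The 3 filters of an experiment share their control libraries.

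The response of AVT6C to the FI filter differed between the experiments. The change in FI_HC over C_HC minus the change in FI_PC over C_PC was -2.15 ± 0.33 on the log2 scale (SE, adjusted p = 0.000579 by edgeR), and it passed in every alternative run, with adjusted p values up to 0.00614. In FI_HC against FI_PC the gene fell by 1.38 ± 0.23 (SE, adjusted p = 0.00533). AVT6C was the 1 member called there (1.72% of those tested), against 0.111% of all genes. The number called was also 1 without the libraries of conflicting identifiers (0.155% of all genes) and without those that stood apart (0.275%). The adjusted p was 0.052 without FI_PC 3 and 0.059 in a fit of the 2 groups alone. For the whole set, 2 members (3.45% of those tested) passed in the difference of FI responses, against 1.19% of all genes, AVT6C and CAT4. That number was 3 (5.17%) without the libraries of conflicting identifiers, against 3.48% of all genes, and 5 (8.62%) without those that stood apart, against 4.96%.

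CAT4 (LOC101263477, chromosome 2, 31450854 to 31467204, a carrier of the vacuole membrane) fell in FI_PC. It had 1.54, 1.15, 1.05 and 0.604 CPM in FI_PC and 2.41, 2.75, 3.46 and 2.66 CPM in C_PC, and the groups did not overlap. The fall was 1.37 ± 0.26 on the log2 scale (SE, adjusted p = 0.00441 by edgeR). Its 2 transcripts share 26 of 31 exon records, so these values rest on few reads of the unshared records. Its FI response differed between the experiments by 1.44 ± 0.35 (SE, adjusted p = 0.0384), with 2.28, 2.33, 2.87 and 2.15 CPM in FI_HC and 2.05, 2.28, 2.47 and 2.36 CPM in C_HC. That call was lost in several alternatives (adjusted p up to 0.0857).

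The lysine histidine transporter-like 8 gene LOC101250935 (chromosome 1, 98029452 to 98032107) had 103, 169, 192 and 189 CPM in FI_PC and 76.4, 86.8, 83.8 and 108 CPM in C_PC. FI_PC 1 lay below the library labelled C_PC 4, and the other FI_PC libraries were above all of C_PC. The gene rose by 0.88 ± 0.20 on the log2 scale (SE, adjusted p = 0.0175 by edgeR), and by 0.99 (adjusted p = 0.00647) once the 3 libraries of doubtful identity were left out. The call was lost without any 1 of C_PC 1, C_PC 2, C_PC 3, FI_PC 2, FI_PC 3 or FI_PC 4, with adjusted p values up to 0.0792. AVT3C (LOC101253878, chromosome 2, 32651811 to 32654225, 1 exon) had 2.87, 3.30, 5.25 and 4.90 CPM in FI_PC and 2.56, 2.90, 2.67 and 1.60 CPM in C_PC. It rose by 0.75 ± 0.20 (SE, adjusted p = 0.0475), a call kept in 5 of the 31 fits that left out 1 library, with adjusted p values up to 0.214. The call was also lost without the 3 libraries with conflicting identifiers (adjusted p = 0.0947) and without the 3 that stood apart (adjusted p = 0.0798). In the FI_PC libraries the summed mesophyll markers were 24750 to 33735 CPM, below C_PC 1 to 3 (51454 to 63090 CPM) and above the library labelled C_PC 4 (18473 CPM), and their part in these results was not tested.

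**Figure D4:**
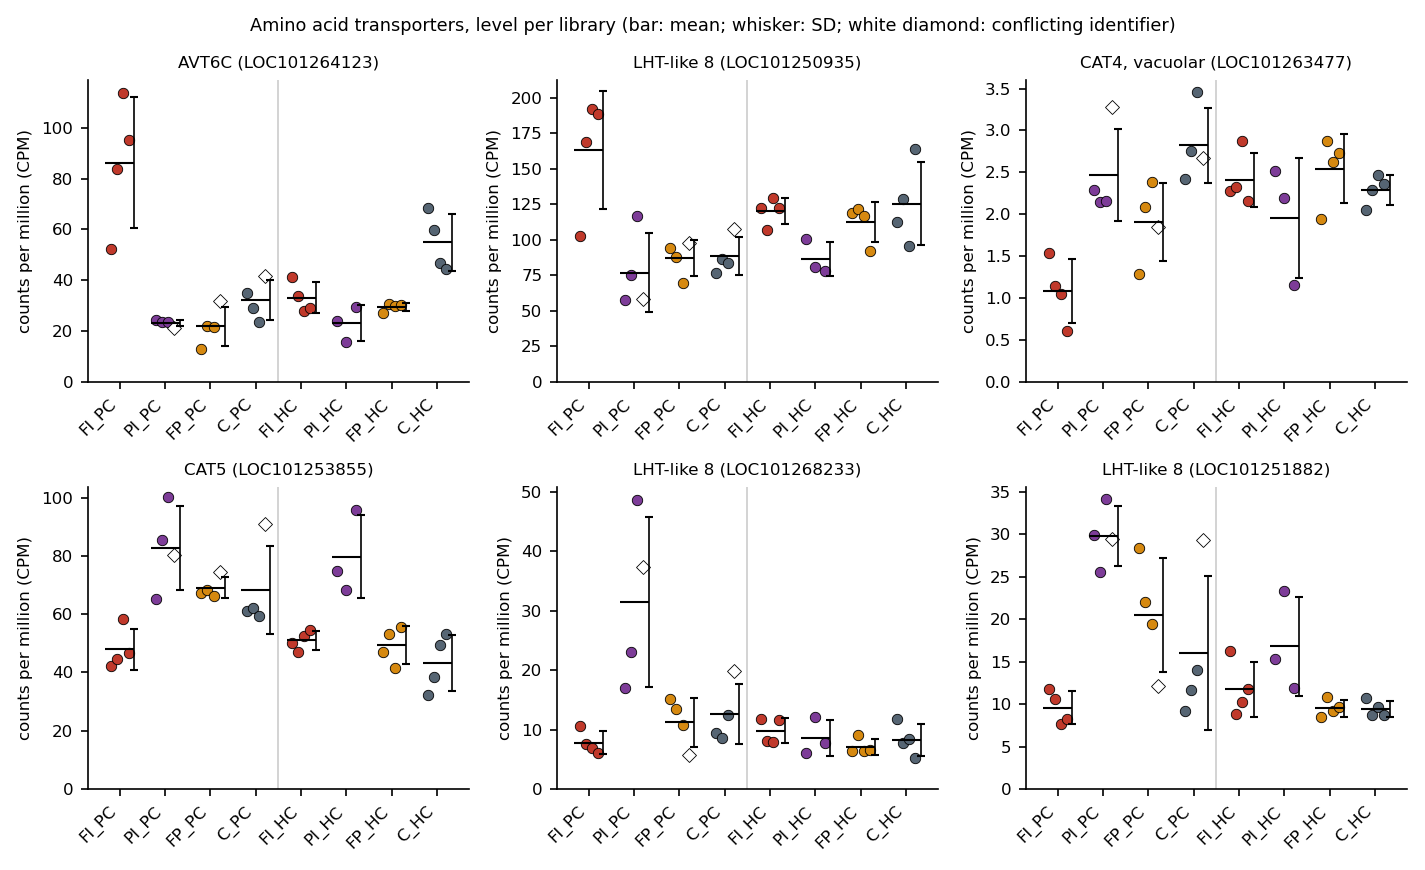
Level in CPM of 6 amino acid transporter genes in each of the 31 libraries, by group, with the group mean as a bar and its SD as a whisker, and the 3 libraries with conflicting identifiers as white diamonds. AVT6C is highest in FI_PC, at 52.4 to 114 CPM, and next in C_HC, at 44.6 to 68.3 CPM, while CAT5 is higher in PI_HC, at 68.4 to 95.9 CPM, than in C_HC, at 32.2 to 53.0 CPM.

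The FP filter gave no called member in either experiment. In FP_PC against C_PC edgeR called 0 members and 0% of all genes, with 3 members at an unadjusted p under 0.05 and 0 by DESeq2. In FP_HC against C_HC it called 0 members and 0.037% of all genes, with 3 members at an unadjusted p under 0.05 and 0 by DESeq2. AVT6C had the smallest p in both, at -0.56 ± 0.23 and -0.89 ± 0.23 on the log2 scale (SE). In FI_HC against C_HC edgeR likewise called 0 members and 0% of all genes, with 3 members at an unadjusted p under 0.05 and 0 by DESeq2. The difference of FP responses between experiments gave 0 members and 0% of all genes, with 3 members at an unadjusted p under 0.05 and 0 by DESeq2.

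The calls under the PI filter at equal height were in transporters, which are also most of the tested members. In PI_HC against C_HC 4 of 58 tested members passed, 1 higher and 3 lower, against 2.12% of all genes (1.01% higher and 1.1% lower). The median log2 fold change was 0.04 over the members and -0.003 over all genes tested. No library of PI_HC or C_HC stood apart or has a conflicting identifier. Summed mesophyll markers were 44674 to 48667 CPM in PI_HC and 33405 to 39742 CPM in C_HC, with no overlap, and their part in these results was not tested. The spread is estimated over all libraries, however, and other libraries bear on the number of members called. It was 6 (10.3% of those tested) without the 3 libraries with conflicting identifiers, against 4.39% of all genes. Without the 3 that stood apart it was 8 (13.8%), against 5.67%. CAT5 (LOC101253855, chromosome 2, 46193563 to 46196251, 1 exon), whose Arabidopsis namesake takes up basic amino acids at the plasma membrane, was the higher one. It had 74.9, 68.4 and 95.9 CPM in PI_HC and 32.2, 38.4, 49.3 and 53.0 CPM in C_HC, with no overlap.

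CAT5 rose in PI_HC by 0.88 ± 0.17 on the log2 scale (SE, adjusted p = 0.00542 by edgeR). Without PI_HC 4 the value was 0.73 with an adjusted p of 0.0839. The 3 genes that fell were AVT6C, NRT2.7 and AVT1H. AVT6C had an adjusted p of 0.0688 without PI_HC 3.

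NRT2.7 (LOC101257730, chromosome 2, 38466996 to 38471962), whose Arabidopsis namesake loads nitrate into the vacuole in seeds, had 4.16, 2.59 and 4.17 CPM in PI_HC and 9.39, 8.80, 6.44 and 4.31 CPM in C_HC. C_HC 4 lay close to the highest PI_HC value. The gene fell by 0.99 ± 0.25 on the log2 scale (SE, adjusted p = 0.0307), and the call was lost without any 1 of C_HC 1, C_HC 2, PI_HC 1, PI_HC 3 or PI_HC 4 (adjusted p up to 0.151). AVT1H (LOC101257409, chromosome 9, 72715230 to 72717407) had 1.98, 1.40 and 0.360 CPM in PI_HC and 8.86, 16.7, 3.77 and 5.66 CPM in C_HC. It fell by 2.80 ± 0.76 (SE, adjusted p = 0.0477), a call kept in 10 of the 31 fits that left out 1 library, with adjusted p values up to 0.284. In this comparison 1 member (1.72% of those tested) passed without PI_HC 3, against 1.03% of all genes, and 1 (1.72%) without PI_HC 4, against 0.365%.

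Between the experiments, 1 member differed under the PI filter with all libraries. LOC101268233 had 5.99, 12.02 and 7.70 CPM in PI_HC and 17.0, 23.0, 48.6 and 37.4 CPM in PI_PC, with no overlap. It fell in PI_HC by 1.87 ± 0.36 on the log2 scale (SE, adjusted p = 0.0058 by edgeR). This was the single call among members (1.72% of those tested), against 3.5% of all genes (2.03% higher and 1.47% lower). The call was lost without PI_HC 4 (adjusted p = 0.0682) and in a fit of the 2 groups alone (adjusted p = 0.143). With the libraries of conflicting identifiers left out, 11 members (19% of those tested) passed, against 15.5% of all genes. Without the library labelled C_PC 4 alone 5 (8.62%) did, against 8.04%, and without the 3 libraries that stood apart 3 (5.17%) did, against 3.95%.

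A second gene of that name, LOC101251882 (chromosome 4, 66051328 to 66054112), was also highest in PI_PC. It had 29.9, 25.5, 34.2 and 29.5 CPM in PI_PC, 28.4, 22.0, 19.5 and 12.1 CPM in FP_PC and 9.13, 11.6, 14.1 and 29.3 CPM in C_PC. Its FI_PC values were 11.8, 10.6, 7.61 and 8.26 CPM, and its C_HC values 10.7, 8.66, 9.63 and 8.70 CPM. The library labelled C_PC 4 was in the range of PI_PC and the library labelled FP_PC 4 was lowest in its group. The other 2 genes of that name were not highest there: LOC101266818 averaged 10.5 CPM in PI_PC and 14.6 CPM in C_PC, and LOC101250935 76.8 CPM in PI_PC and 88.7 CPM in C_PC. Reads could be split between these 4 genes where their sequences are close.

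The other comparisons between experiments gave no called member with all libraries. For C_HC against C_PC edgeR called 0 members and 0.309% of all genes, with 13 members at an unadjusted p under 0.05 and 2 by DESeq2. CAT5 was at -0.66 ± 0.16 on the log2 scale there (SE, adjusted p = 0.0606). In that comparison 1 member (1.72% of those tested) passed without the libraries of conflicting identifiers, against 1.76% of all genes. Without those that stood apart 3 (5.17%) passed, against 3.84%. For FP_HC against FP_PC edgeR called 0 members and 0.0494% of all genes, with 6 at an unadjusted p under 0.05 and 1 by DESeq2. Here 2 members (3.45%) passed without the libraries of conflicting identifiers, against 0.844% of all genes, and 2 (3.45%) without those that stood apart, against 0.661%. For the difference of PI responses between experiments edgeR called 0 members and 0.802% of all genes, with 15 at an unadjusted p under 0.05 and 2 by DESeq2. Without the 3 libraries with conflicting identifiers 16 members (27.6%) passed in that difference, against 17.4% of all genes. Without the library labelled C_PC 4 alone 7 (12.1%) did, against 7.39%, and without the 3 libraries that stood apart 1 (1.72%) did, against 1.98%.

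A further 2 transporters and the arginine enzyme passed the test of any difference among groups, and with all libraries none of the 13 contrasts by edgeR. Lysine histidine transporter-like 6 (LOC101262414) averaged 7.30 ± 1.93 CPM in FI_HC and 5.69 ± 0.886 CPM in C_HC (SD, n = 4 each), and its lowest group mean was 3.54 ± 0.343 CPM in PI_HC (SD, n = 3; adjusted p = 0.0128 by edgeR). The permease gene AAP3 averaged 3.95 ± 0.725 CPM in PI_HC (SD, n = 3) and 1.93 ± 0.648 CPM in FP_PC (SD, n = 4), its highest and lowest group means (adjusted p = 0.0251). N-acetyl-glutamate synthase (LOC100301981) averaged 14.8 ± 5.76 CPM in PI_HC (SD, n = 3) and 8.67 ± 0.776 CPM in FI_PC (SD, n = 4), also its extremes (adjusted p = 0.0418). The nitrate regulatory gene2 proteins, named for a regulator of the nitrate response in Arabidopsis, had 8 tested genes and gave no call in any comparison by edgeR with all libraries, while DESeq2 called LOC101257405 in PI_HC against C_HC (0.37 on the log2 scale, adjusted p = 0.035) and LOC101264361 in the test of any difference (adjusted p = 0.0187).

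**Figure D5:**
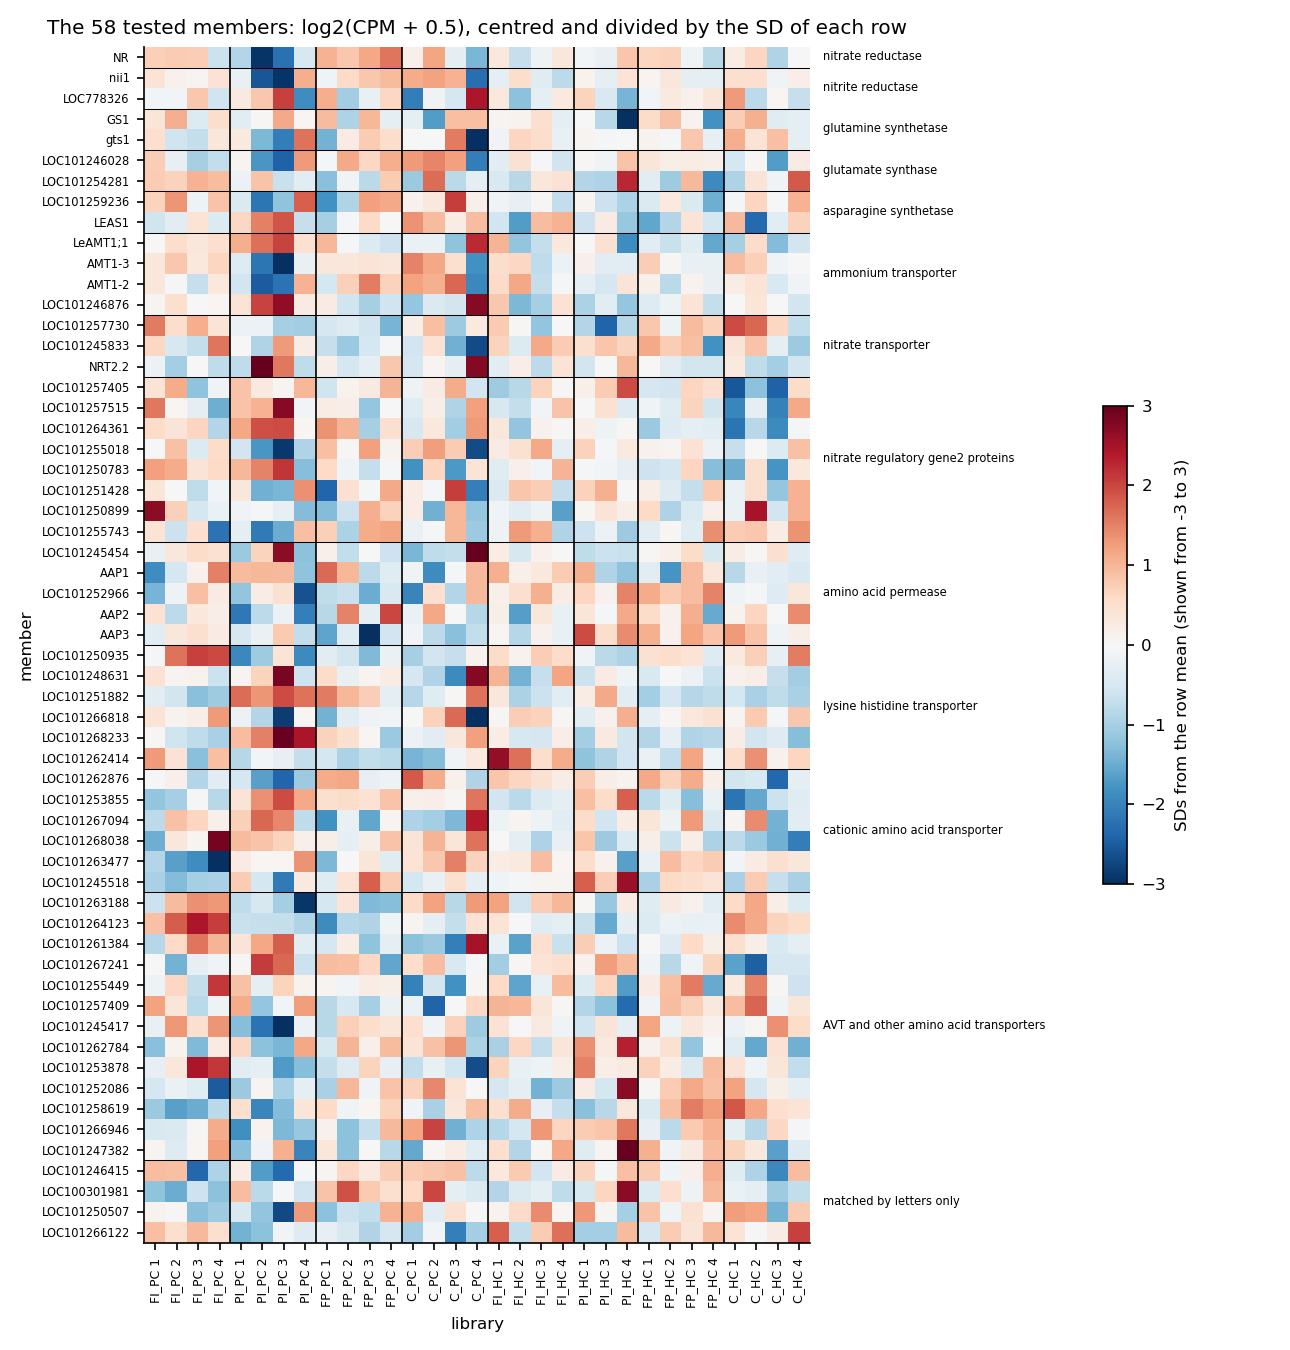
The 58 tested members in rows, ordered by class, and the 31 libraries in columns, ordered by group, coloured by log2 CPM in SDs from each row's mean. PI_PC 2, PI_PC 3 and the library labelled C_PC 4 share a pattern of low nii1, AMT1-2 and AMT1-3 and high LOC101246876, and FI_PC is high in LOC101264123 and low in LOC101263477.

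Related genes of the pathway that the product words did not take were also counted, 186 in all with 118 tested. They were followed with all libraries and without the 3 libraries with conflicting identifiers. How their calls hold in the other alternatives, such as leaving out 1 library, was not examined. In FI_PC against C_PC 3 of them passed, 1 higher and 2 lower, against the 2.26% of all genes given above. The higher one was an NLP9-like gene (LOC101246738), of the NIN-like proteins that act as transcription factors of the nitrate response. It had 13.6, 18.9, 12.8 and 10.5 CPM in FI_PC and 7.09, 7.59, 4.40 and 6.57 CPM in C_PC, with no overlap. The gene rose by 1.12 ± 0.23 on the log2 scale (SE, adjusted p = 0.00777 by edgeR). The 2 lower ones were WAT1-related genes, LOC101251116 (-0.64) and LOC101257013 (-0.72).

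Nitrate and peptide transporters of the NRT1/PTR family, with 55 of 79 genes tested, gave 2 calls in PI_PC against C_PC with all libraries, both lower, against 0.296% of all genes. NRT1/PTR family 6.4 (LOC101253972) had 194, 182, 126 and 189 CPM in PI_PC and 342, 478, 302 and 233 CPM in C_PC, with no overlap. It fell by 0.97 ± 0.20 on the log2 scale (SE, adjusted p = 0.0316). NRT1/PTR family 7.3 (LOC101250924) had 114, 113, 69.3 and 86.2 CPM in PI_PC and 202, 272, 137 and 124 CPM in C_PC, again with no overlap, and fell by 0.94 ± 0.21 (SE, adjusted p = 0.0474). Both were higher in PI_HC than in PI_PC, by 0.93 (adjusted p = 0.0137) and 1.40 (adjusted p = 0.00228). Leaving out the libraries of conflicting identifiers, 28 of the 55 tested family genes passed in PI_PC against C_PC, 6 higher and 22 lower. Of all genes 28.8% passed in that fit, 13.7% higher and 15% lower. Whether the family differs from this background was not tested. PI_PC 2 and PI_PC 3, which stood apart, remained in that fit.

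In PI_HC against C_HC 4 of the 118 tested related genes passed, 3 higher and 1 lower, against 2.12% of all genes (1.01% higher and 1.1% lower). The tonoplast dicarboxylate transporter-like gene LOC101257524, of a family that carries malate into the vacuole, had 184, 147 and 251 CPM in PI_HC and 90.5, 75.5, 109 and 88.3 CPM in C_HC, with no overlap. It rose by 1.10 ± 0.23 on the log2 scale (SE, adjusted p = 0.0108 by edgeR). NRT1/PTR family 6.2 (LOC101268119) rose by 1.75 (adjusted p = 0.0466), an NLP7-like gene (LOC101247739) rose by 0.37 (adjusted p = 0.0496), and NRT1/PTR family 2.11 (LOC101267393) fell by 0.76 (adjusted p = 0.0185). In PI_HC against PI_PC 9 related genes passed, 8 higher and 1 lower, against 3.5% of all genes (2.03% higher and 1.47% lower).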

How the data were processed

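Fragment counts per exon record were used as deposited. Per the file headers, the authors made them from paired reads with featureCounts 2.0.1, reverse-stranded, using RefSeq gene models on SL3.0 and taking each exon record as its own feature. Per the submitters' processing notes, FastQC, HISAT2 and DESeq2 were also used; their settings are not given in the sources used here. Of 310488 records 181694 (58.5%) share coordinates with another and hold 0 counts. Records were summed to genes; 6 records without a gene identifier (0.0279% of counts) were left out. Names were looked up in RefSeq (92 of 93 members matched).

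The test was edgeR 4.0.16 (quasi-likelihood, TMM, filterByExpr) in R 4.3.3 over all 31 libraries with 1 mean per group, 13 contrasts and a test of any difference, each adjusted by Benjamini-Hochberg over 16204 genes at 0.05. CPM were scaled with TMM factors. P-values set differences between groups against the spread between libraries within groups, estimated over all 31. Alternatives are listed in the closing section (DESeq2 1.42.0 among them). Named were members past the threshold, the smallest p in each filter comparison, tested enzymes, and the highest transporter per class; others were chosen after their values were seen. The members and lists were chosen with earlier results of these data known. On simulated counts for FI_PC against C_PC (16012 genes, 198 changed 2-fold), 57.6% of changes were recovered, with 114 of 117 calls true. Whether these rates hold for the measured libraries, some of which stood apart, was not tested.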

Additional observations from a re-analysis of the deposited data

Results flagged for a closer look

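In 182 groups of 4 libraries examined for 26 members, 10 held a library far from the others, which is 5.49% where chance gives about 5%. Of these, 4 were the library labelled C_PC 4: CAT5 (LOC101253855) at 90.8 CPM against 59.4 to 62.0 CPM in C_PC 1 to 3, the glutamate synthase LOC101246028 at 643 CPM against 1404 to 1484 CPM, nii1 at 37.4 CPM against 160 to 172 CPM, and the permease LOC101245454 at 402 CPM against 152 to 173 CPM. CAT4 (LOC101263477) was high in the library labelled PI_PC 4, at 3.28 CPM against 2.14 to 2.29 CPM. LOC101250935 was low in FP_HC 4, at 92.0 CPM against 117 to 122 CPM, and LOC101268233 was high in FP_HC 2, at 9.15 CPM against 6.37 to 6.55 CPM. NR was low in FI_PC 4, at 4445 CPM against 5507 to 5558 CPM. The asparagine synthetase LOC101259236 was high in C_PC 3, at 17.7 CPM against 11.99 to 12.4 CPM, and LOC101262876 was low in C_HC 3, at 274 CPM against 338 to 348 CPM.

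The response to the FI filter differed between the experiments, by the interaction test, for AVT6C (LOC101264123, -2.15 on the log2 scale, adjusted p = 0.000579 by edgeR, 0.000142 to 0.00614 over the alternatives with edgeR) and for CAT4 (1.44, adjusted p = 0.0384).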

How the results depend on the processing

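The alternatives were DESeq2 size factors, the DESeq2 test, the compared groups alone, genes with 1 transcript, no low-count filter, a replicate block, each library left out, and the libraries with conflicting identifiers or those that stood apart left out together. Of the 49 results on single members, those of a contrast all kept their direction under these alternatives. Those of the test of any difference have no direction and could not turn. Outside these results, the permease LOC101245454 was called higher in PI_PC than in C_PC without the libraries with conflicting identifiers (0.56 on the log2 scale, adjusted p = 0.0106 by edgeR, against -0.02 with all libraries) and higher in FI_PC than in C_PC without those that stood apart (0.34, adjusted p = 0.018, against -0.09). Of 1878 recomputed values for the 49 results, 1711 stayed on their side of the threshold, 123 lost the call and 44 gained it; the causes were not tested.

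Numbers of called members changed as follows. FI_PC against C_PC (4) gave 0 with the compared groups alone, 8 without the libraries that stood apart, and 2 to 5 with 1 library left out. PI_PC against C_PC (0) gave 4 with DESeq2, 2 without the libraries that stood apart, 25 without those with conflicting identifiers, and 0 to 15 with 1 left out. PI_HC against C_HC (4) gave 8 without the libraries that stood apart and 1 to 5 with 1 left out. C_HC against C_PC (0) gave 1 with DESeq2 size factors, 2 with DESeq2, 1 with the block, 3 without the libraries that stood apart, 1 without those with conflicting identifiers, and 0 to 1 with 1 left out. FI_HC against FI_PC (1) gave 2 with DESeq2, 0 with the compared groups alone, and 0 to 2 with 1 left out. FP_HC against FP_PC (0) gave 1 with DESeq2, 1 with the compared groups alone, 2 without either set of 3 libraries, and 0 to 1 with 1 left out. PI_HC against PI_PC (1) gave 3 with DESeq2, 0 with the compared groups alone, 3 without the libraries that stood apart, 11 without those with conflicting identifiers, and 0 to 5 with 1 left out. The difference of FI responses (2) gave 1 with the compared groups alone, 1 with 1-transcript genes, 1 with no filter, 1 with the block, 5 without the libraries that stood apart, and 1 to 3 with 1 left out. The difference of PI responses (0) gave 2 with DESeq2, 1 without the libraries that stood apart, 16 without those with conflicting identifiers, and 0 to 7 with 1 left out. The test of any difference (10) gave 20 with DESeq2, 17 without the libraries that stood apart, 27 without those with conflicting identifiers, and 7 to 18 with 1 left out.

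The values gave no sign that replicate numbers pair the plants. The correlation of same-numbered deviations lay between -0.693 and 0.403, and in no comparison did every library correlate best with its own number. With so few pairs in a comparison, this cannot settle whether the plants were paired. With the replicate block the number of called members was otherwise within 1.5 times that without it, and calls lost under it are not described as weaker effects. Members with several transcripts, and genes near the floor of 3 counts, are measured with few reads.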
